A study of Mus musculus with 13 samples.

Results

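The bins that hold 7 genes of vascular growth signalling, Vegfa, Kdr, Flt1, Flt4, Nrp1, Tek and Adm, were followed for 5-hydroxymethylcytosine (5hmC), the oxidised form of 5-methylcytosine that TET enzymes make in an oxygen-dependent reaction. The genes were taken by name for their role in this signalling, and every 300 kb bin of the table that overlaps one of their bodies was used. This gave 10 bins of the 9097 in the table and of the 8576 that entered the tests. 5hmC had been measured by shallow TAB-seq (Tet-assisted bisulfite sequencing, in which 5hmC is protected and still reads as cytosine) in 13 breast tumours induced by PyMT, the polyoma middle T oncogene, each labelled as coming from a mouse of its own. All mice were of the FVB strain. In the first model, mice of 16 weeks were PHD2+/+ (3 tumours, here wild type) or PHD2+/- (4 tumours, here heterozygous). PHD2 is the oxygen-sensing hydroxylase that marks HIF for destruction, and per the labels loss of an allele brought back vessels and oxygen in these tumours. In the second model, mice of 12 weeks had received a plasmid by hydrodynamic injection, either empty PRRL2 (3 tumours) or PRRL2-sFlk1 (3 tumours), which encodes a soluble form of the receptor Kdr, also called Flk1, that traps VEGF. Per the labels, tumours with sFlk1 were more hypoxic. The models differ in age and in the injection, so a difference between models cannot be told apart from these. How much plasmid product each mouse made is not given in the sources used here, nor is how the Phd2 allele was made.

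VEGF-A (Vegfa) is released by cells that lack oxygen and is the main signal for endothelial cells to sprout. Its signal runs through the tyrosine kinase receptor VEGFR2 (Kdr), while VEGFR1 (Flt1) binds the same ligand more tightly and signals less, VEGFR3 (Flt4) serves VEGF-C and VEGF-D mainly in lymphatic vessels, and neuropilin 1 (Nrp1) is a co-receptor without kinase activity. Tie2 (Tek), the receptor of the angiopoietins, steadies formed vessels, and adrenomedullin (Adm) is a vasoactive peptide that hypoxia induces. 5hmC is commonly high in the bodies of transcribed genes, but no RNA was measured here, so neither expression nor the cell types of the tumours could be checked.

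Promoters are shown to make plain which CpG sites, the positions where 5hmC is found, lie at the starts of these genes, although each value below is an average over a bin and not over a promoter. RefSeq (GRCm38.p6) gave a start for all 7 genes. The 250 bases before it held 11 CpG in Vegfa, 16 in Kdr, 23 in Flt1, 16 in Flt4, 11 in Nrp1, 2 in Tek and 7 in Adm, against a median of 6 over 32851 such windows of 27025 genes. The windows of both ligands and of Flt4 are printed 5′ to 3′ on the strand of the gene, because they lie outside every RefSeq model of their gene, with each CpG in capitals. They are Vegfa at chr17:46032378-46032627 (minus strand), Adm at chr7:110627407-110627656 (plus strand) and Flt4 at chr11:49609429-49609678 (plus strand).
Vegfa: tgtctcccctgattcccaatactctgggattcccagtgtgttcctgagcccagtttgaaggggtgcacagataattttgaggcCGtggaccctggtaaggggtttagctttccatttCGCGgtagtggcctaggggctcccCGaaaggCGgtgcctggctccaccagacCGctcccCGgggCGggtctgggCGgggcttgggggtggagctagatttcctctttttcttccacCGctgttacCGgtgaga
Adm: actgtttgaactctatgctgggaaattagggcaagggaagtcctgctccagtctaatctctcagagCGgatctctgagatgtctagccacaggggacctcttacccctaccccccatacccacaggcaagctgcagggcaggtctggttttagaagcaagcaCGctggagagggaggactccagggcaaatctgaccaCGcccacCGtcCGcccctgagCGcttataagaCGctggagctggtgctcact
Flt4: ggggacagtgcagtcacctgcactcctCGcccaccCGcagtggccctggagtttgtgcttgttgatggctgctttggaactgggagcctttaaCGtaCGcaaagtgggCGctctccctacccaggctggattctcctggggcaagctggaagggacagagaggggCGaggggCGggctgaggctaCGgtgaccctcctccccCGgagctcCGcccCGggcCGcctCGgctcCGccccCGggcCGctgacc
The words ACGTG and GCGTG, the core to which HIF binds, were searched on both strands. The RefSeq table lists 1 start for each of 6 genes and 2 for Vegfa, the second of them 7214 bases inside the gene, which makes 8 windows. In the 7 windows of the outermost starts ACGTG was not found, and GCGTG, read as CACGC where it lies on the other strand, was in 4 (Kdr, Flt1, Nrp1 and Adm). The window of the inner Vegfa start (chr17:46025164-46025413) has both words, at -211 and -218 from that start. Over the 8 windows ACGTG was therefore in 1 and GCGTG in 5, against 16.6% and 28.2% of all 32851 windows. In the Adm window it begins at -90 and -54 from the start. These matches describe letters in a window and not sites of binding.

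A bin of 300 kb is far larger than most of these genes. Vegfa (chr17:46016993-46032377) fills 5.13% of its bin, which it shares with Gtpbp2, Mad2l1bp, Mrps18a, Polh and Rsph9. Adm (chr7:110627657-110629820) fills 0.721% of its bin, while Sbf2 covers 71.6% of it. Kdr (chr5:75932827-75979072) fills 15.4% of a bin with Srd5a3 and Tmem165, and Flt4 (chr11:49609679-49652739) 14.4% of a bin with 9 other protein-coding genes. Flt1 (chr5:147561604-147726438), Nrp1 (chr8:128358591-128505476) and Tek (chr4:94739086-94874976) each run over a pair of bins. The second bin by coordinate holds the larger part of all 3, with 76.7% of Flt1, 71.8% of Nrp1 and 55.2% of Tek. The start of Flt1 lies in its second bin, and those of Nrp1 and Tek in their first. A value therefore belongs to the whole bin and to every gene in it, in all cell types of the tumour together: a different share of cells and a different 5hmC content per cell cannot be told apart. The table has percentages and no read counts, so the depth is unknown and no counting interval can be given.

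Over all 8576 bins the mean 5hmC of a tumour was between 2.18% and 3.17%. By group it was 2.34% ± 0.137 (SD, n = 3) in wild type, 2.87% ± 0.265 (n = 4) in heterozygous, 2.68% ± 0.158 (n = 3) in empty vector and 2.46% ± 0.067 (n = 3) in sFlk1 tumours, so a higher value in a bin of a heterozygous tumour has to be read against a higher level of the whole genome. Differences after division by the tumour's own mean, in percentage points once scaled back, are given beside the differences of the Phd2 model. No pair of columns held the same values, and the profiles of any pair of tumours over all bins had a correlation of 0.716 to 0.885.

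Among the 10 bins the Adm bin had the highest 5hmC, 5.01% ± 1.43 (SD, n = 13), at percentile 90.4 of all bins. The first Flt1 bin followed with 4.51% ± 0.731 and the Vegfa bin with 4.21% ± 0.856. The second and first Tek bins lay at 3.62% ± 0.689 and 3.55% ± 1.12, and the second Flt1 bin, the second Nrp1 bin and the Flt4 bin at 3.31% ± 1.12, 3.14% ± 1.17 and 2.94% ± 0.941. The Kdr bin, at 2.60% ± 0.507, was near the middle of the genome (percentile 54.2), and the first Nrp1 bin was the lowest of the 10 at 2.15% ± 0.704 (percentile 46.3). On average the bins of both ligands stood above that of Kdr, the receptor that carries the VEGF-A signal. The first Flt1 bin, also of a receptor, stood above that of Vegfa, so ligands and receptors did not separate by level. Vegfa and Adm fill only 5.13% and 0.721% of their bins. The order of neighbours varied between tumours. Each mean difference within a tumour was smaller than its SD over the 13 tumours. These ran from 0.0699 ± 1.38 points between both Tek bins to 0.592 ± 1.00 points between Vegfa and the second Tek bin. That SD describes single tumours, and the mean differences were not tested. The bins of Vegfa and Adm, the first Flt1 bin and the second Tek bin were above the tumour's own mean in 13 of 13 tumours, the Kdr bin in 6 and the first Nrp1 bin in 4. The Adm bin was the highest of the 10 in 4 tumours and among the top 3 in 10.

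**Figure D1:**
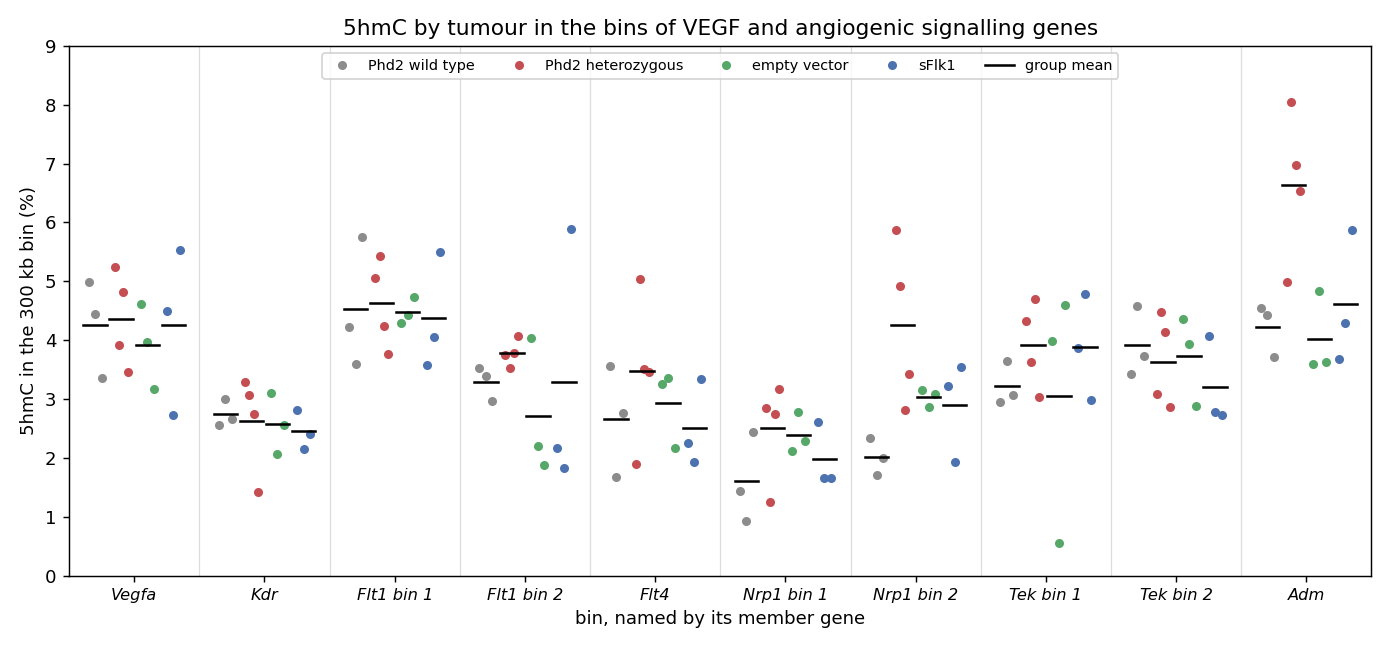
5hmC (percent, vertical axis) in each of the 10 bins (horizontal axis), 1 point per tumour, coloured by group, with a black bar at the group mean. Heterozygous tumours lie above the wild type ones without overlap in the Adm bin, from 4.98% against at most 4.54%, and in the second bins of Nrp1 and Flt1. Single tumours stand apart at 5.88% in the second Flt1 bin (sFlk1) and at 0.556% in the first Tek bin (empty vector).

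Phd2 heterozygous and wild type tumours were compared first, to ask whether 5hmC at these genes differed where, per the labels, vessels and oxygen were restored. The difference was largest in the Adm bin, 2.41 percentage points higher in heterozygous tumours, and in the second Nrp1 bin, 2.24 points higher. The Vegfa and Kdr bins differed by 0.0997 and -0.104 points. No bin of the 10 passed an adjusted p of 0.05 in limma, which fitted all 8576 bins of the 13 tumours with 4 group means, and no bin of the genome did (0%). At an unadjusted p under 0.05, 2 of the 10 bins were higher and 0 lower, against 10.4% and 0.443% of all bins and 14.8% higher at like level, the 3778 bins between 2.15% and 5.01% over all tumours. The mean was higher in 8 of 10 bins, where 75.1% of all bins and 88.3% of those of like level were higher. All heterozygous tumours exceeded all wild type ones in 3 of 10 bins and lay below them in 0, against 11.0% and 0.933% of all bins and 15.3% and 0.106% at like level. The median difference over the 10 bins was 0.593 points, beside 0.385 over all bins and 0.747 at like level. With 10 bins, 1 bin more or fewer shifts each of these shares by 10 percentage points. After division by the tumour mean, 4 of 10 bins had a higher mean, against 46.8% of all bins and 54.1% at like level.

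Of the ligands, the Vegfa bin (chr17:45900001-46200000) held 4.99%, 4.44% and 3.36% 5hmC in the wild type tumours and 5.25%, 3.92%, 4.82% and 3.46% in the heterozygous ones. The groups overlapped over nearly their whole range. The means of 4.26% ± 0.828 (SD, n = 3) and 4.36% ± 0.817 (n = 4) differed by 0.0997 points (SE 0.733, adjusted p = 0.977 in limma). After division by the tumour mean the sign turned, to -0.794 points (SE 0.705, unadjusted p = 0.270 in limma). The Adm bin (chr7:110400001-110700000) held 4.54%, 4.43% and 3.71% in wild type and 4.98%, 8.05%, 6.98% and 6.54% in heterozygous tumours. Every heterozygous tumour was above every wild type one, and heterozygous tumour 1 came closest to them. The means of 6.64% ± 1.27 and 4.23% ± 0.449 differed by 2.41 points (SE 0.787, unadjusted p = 0.00504, adjusted p = 0.337 in limma). Exact permutation of the labels (two-sided) gave p = 0.0571, and 35 arrangements cannot give less than 0.0286. Relative to the tumour mean the ratios were 1.82 ± 0.251 and 2.32 ± 0.423, and the limma difference of 1.32 points had an unadjusted p of 0.0858, so this bin then did not pass even the unadjusted threshold.

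Sbf2, a gene of the myotubularin family, covers most of the Adm bin and runs on into the bin before it. In that neighbour the heterozygous tumours had 6.84% ± 1.36 (n = 4) and the wild type ones 5.31% ± 0.215 (n = 3), and the groups overlapped (unadjusted p = 0.0978 in limma). Within 3 Mb on either side of the Adm bin, 19 of 20 bins averaged more 5hmC in heterozygous tumours, by a median of 0.991 points and at most by 1.83, so that the Adm bin differed more than all 20. The values do not say which of the genes in the bin they belong to.

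Of the receptors, the Kdr bin (chr5:75900001-76200000) held 2.55%, 3.01% and 2.65% in wild type and 3.29%, 3.07%, 2.74% and 1.43% in heterozygous tumours. The last of these was the lowest of all 13 tumours, and the other 3 heterozygous tumours lay among or above the wild type ones. The means were 2.74% ± 0.237 and 2.63% ± 0.836 (difference -0.104, SE 0.555, adjusted p = 0.966 in limma), and the difference relative to the tumour mean was -0.706 points (SE 0.527). The mean over the bin and a bin on either side (900 kb) was instead 0.724 points higher (SE 0.425, unadjusted p = 0.0999, adjusted p = 0.291 in limma).

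The first Flt1 bin (chr5:147300001-147600000), which also holds Flt3 and Cdx2, had 4.22%, 3.59% and 5.76% in wild type and 5.05%, 5.43%, 4.24% and 3.77% in heterozygous tumours. The groups overlapped, with a difference of 0.101 points (SE 0.718, adjusted p = 0.976 in limma) that became -0.832 relative to the tumour mean. The second Flt1 bin (chr5:147600001-147900000), with the gene's start, had 3.53%, 3.39% and 2.96% in wild type and 3.75%, 3.53%, 3.79% and 4.07% in heterozygous tumours. Here the groups did not overlap, but the lowest heterozygous and the highest wild type tumour both read 3.53%. The difference was 0.493 points (SE 0.759, adjusted p = 0.834 in limma, exact permutation p = 0.0571) and turned to -0.202 relative to the tumour mean. With both bins weighted by the bases of the gene in each, Flt1 had 3.69%, 3.44% and 3.61% in wild type and 4.05%, 3.98%, 3.89% and 4.00% in heterozygous tumours. These groups did not overlap, at 3.58% ± 0.129 (n = 3) and 3.98% ± 0.0666 (n = 4), and the exact permutation p was 0.0286, the smallest possible and not adjusted for the 3 genes and 4 contrasts tested in this way. With any 1 of the 7 tumours left out, fewer arrangements remain and the p was at least 0.0667, and with equal weights for both bins it was 0.314. Divided by the tumour mean the weighted value was lower in heterozygous tumours (difference of the ratios -0.134, exact permutation p = 0.20). With equal weights and the same division the groups did not overlap in that opposite direction (difference of the ratios -0.198, exact permutation p = 0.0286, again the smallest possible). The direction for Flt1 therefore rests on the scale.

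The Flt4 bin (chr11:49500001-49800000) held 3.56%, 1.67% and 2.77% in wild type and 1.90%, 5.03%, 3.51% and 3.45% in heterozygous tumours. Heterozygous tumour 2 was the highest of all 13, and the groups overlapped. The means of 2.67% ± 0.949 and 3.47% ± 1.28 differed by 0.810 points (SE 0.676, adjusted p = 0.663 in limma), and by 0.219 (SE 0.628) relative to the tumour mean.

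Of the Nrp1 bins, the first (chr8:128100001-128400000), with the start of the gene and no other protein-coding gene, had 1.44%, 0.919% and 2.44% in wild type and 2.84%, 1.24%, 2.75% and 3.17% in heterozygous tumours. Heterozygous tumour 2 fell among the wild type ones, and the difference was 0.902 points (SE 0.549, adjusted p = 0.544 in limma), or 0.575 (SE 0.559) relative to the tumour mean. The second (chr8:128400001-128700000), with the larger part of the gene and the first part of Itgb1, had 2.33%, 1.70% and 2.00% in wild type and 5.86%, 4.92%, 2.82% and 3.42% in heterozygous tumours. The wild type tumours were the lower group without exception. The means of 4.26% ± 1.39 (n = 4) and 2.01% ± 0.316 (n = 3) differed by 2.24 points (SE 0.665, unadjusted p = 0.00230, adjusted p = 0.324 in limma, exact permutation p = 0.0571). This bin was 52nd of 8576 by p. Relative to the tumour mean the ratios were 1.47 ± 0.412 and 0.857 ± 0.0943, with an unadjusted limma p of 0.0138 (adjusted p = 1), and it was then the only 1 of the 10 bins under 0.05, against 1.62% of all bins and 2.04% at like level that were higher. The weighted value over both bins was 3.76% ± 0.944 against 1.90% ± 0.359 (difference 1.87, exact permutation p = 0.0571).

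The next bin, with the larger part of Itgb1 (integrin beta 1), had 1.78% ± 0.832 in heterozygous and 2.55% ± 0.845 in wild type tumours, a difference of -0.769 points (unadjusted p = 0.166 in limma). The second Nrp1 bin is followed by 2 kept bins before the end of chromosome 8. Of the 12 bins within 3 Mb of it, 9 averaged more 5hmC in heterozygous tumours, by a median of 0.430 points over the 12 and at most 1.87, and all 12 differed less than it did. As with Adm, its large difference was the reason to look, so this is partly built in. The Flt4 and first Tek bins had a higher difference than 17 of 20 flanking bins, and the second Flt1 bin than 11 of 20. The first Nrp1 bin exceeded 8 of 13, the Vegfa and Kdr bins 2 of 20 each, and the first Flt1 and second Tek bins 1 of 20 each.

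**Figure D2:**
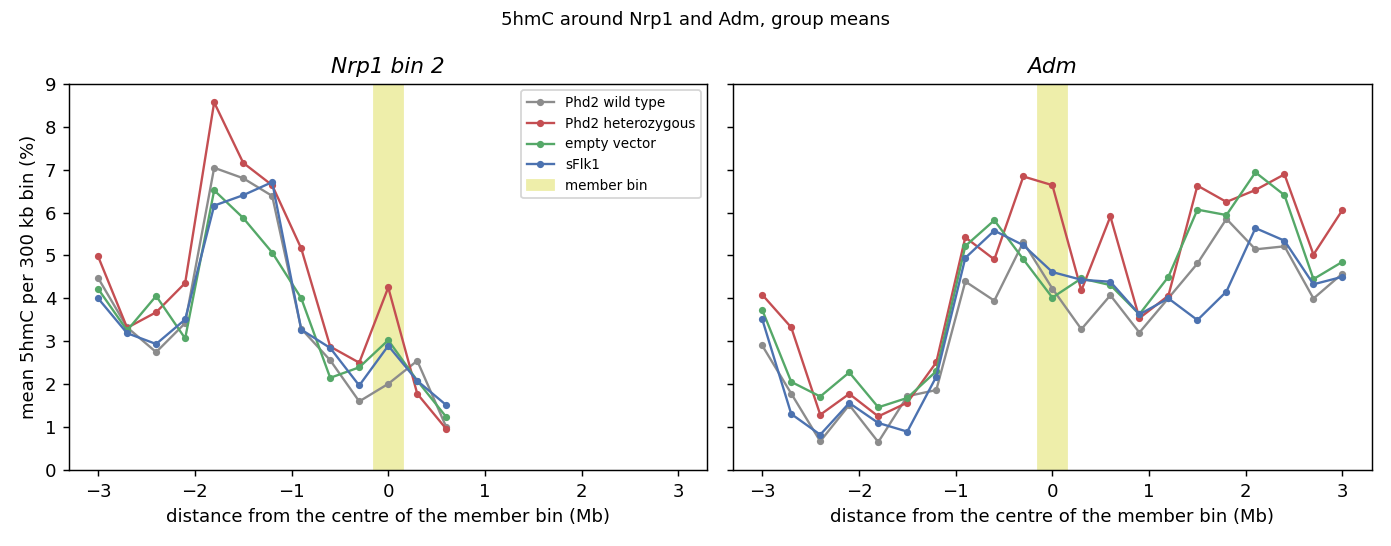
Group means of 5hmC (percent, vertical axis) in the second Nrp1 bin, in the Adm bin (shaded) and in up to 10 bins of 300 kb on each side, by distance from the centre of the shaded bin (Mb). In both shaded bins the heterozygous mean (4.26% and 6.64%) lies above the other 3 group means, while the bin after Nrp1 has its lowest mean in heterozygous tumours (1.78%).

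The first Tek bin (chr4:94500001-94800000) had 2.95%, 3.65% and 3.07% in wild type and 4.33%, 3.62%, 4.69% and 3.03% in heterozygous tumours, a difference of 0.694 points (SE 0.768, adjusted p = 0.758 in limma). The second (chr4:94800001-95100000), shared with Jun, had 3.43%, 4.58% and 3.73% against 3.08%, 4.47%, 4.13% and 2.86%, a difference of -0.276 points (SE 0.644, adjusted p = 0.897 in limma). Groups overlapped in both bins, and the bins of this receptor differed in opposite directions, each by less than its SE. Relative to the tumour mean both were lower on average in heterozygous tumours, at -0.0509 points (SE 0.754) in the first and -1.10 (SE 0.625, unadjusted p = 0.0891, adjusted p = 1 in limma) in the second. The weighted value was 3.76% ± 0.630 in heterozygous and 3.60% ± 0.497 in wild type tumours (exact permutation p = 0.771).

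The size of the 2 differences under 0.05 unadjusted varied with single tumours. The difference in the second Nrp1 bin was 1.71 points without heterozygous tumour 1 and that in the Adm bin 1.93 points without heterozygous tumour 2, their smallest values when any 1 tumour was left out. Averaged over a window of 900 kb, each bin with its neighbours, they were 0.792 points (unadjusted p = 0.0352 in limma) and 1.61 points (unadjusted p = 0.00831), with no adjusted p under the threshold.

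**Figure D3:**
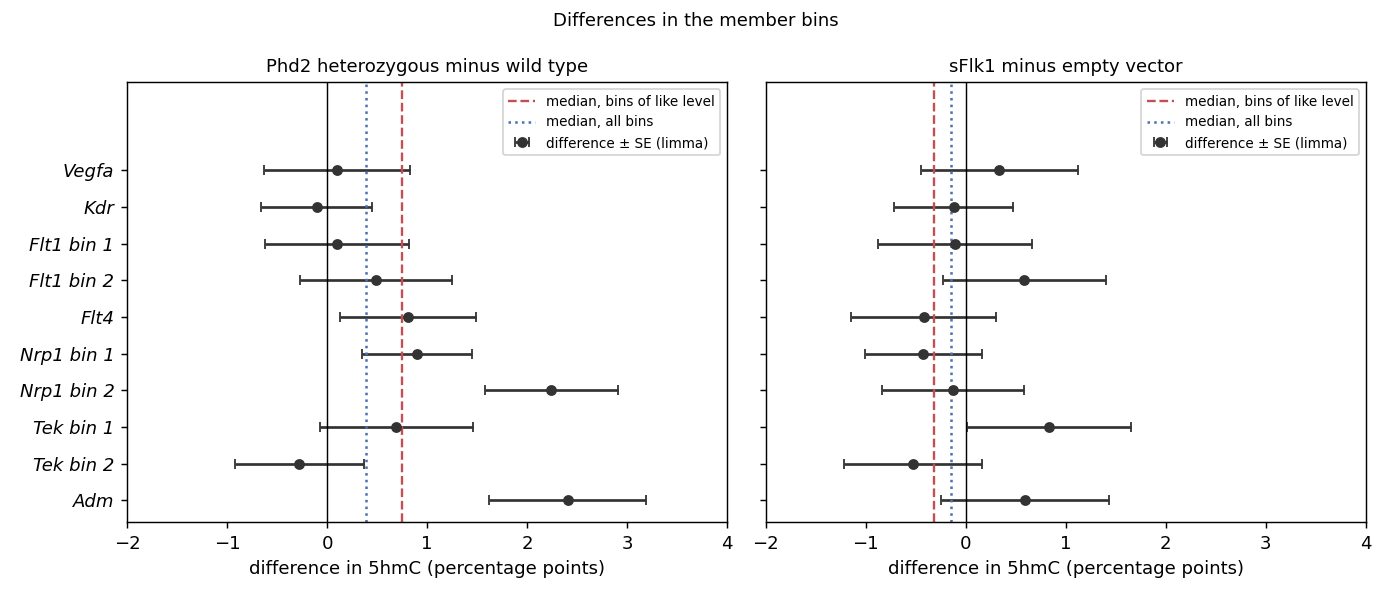
Differences in 5hmC (percentage points, horizontal axis) in the 10 bins, as points with their SE from limma, in the Phd2 model (left) and the sFlk1 model (right). The dashed line is the median over 3778 bins of like level (0.747 and -0.316 points) and the dotted line that over all bins (0.385 and -0.146 points). In the Phd2 model the SE bars of the second Nrp1 bin and of Adm lie above both lines, and in the sFlk1 model the SE bars of all bins but the first Tek bin cross 0.

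sFlk1 and empty vector tumours were compared next, where per the labels the tumours with sFlk1 were more hypoxic. The mean was lower with sFlk1 in 6 of the 10 bins and higher in 4, where 59.5% of all bins and 66.4% of those of like level were lower. None of the 10 reached an unadjusted p of 0.05 in limma in either direction, against 5.06% lower and 2.12% higher over all bins and 6.33% lower at like level, and 1 bin of all 8576 passed the adjusted threshold (0.0117%). The adjusted p-values of the 10 were between 0.860 and 0.987. Groups overlapped in all 10 bins, while 8.24% of all bins (10.2% at like level) were without overlap and lower and 3.43% (2.20%) without overlap and higher. The median difference was -0.113 points over the 10, -0.146 over all bins and -0.316 at like level. After division by the tumour mean 7 of 10 were higher with sFlk1, against 51.9% of all bins and 48.2% at like level, so the direction of these small differences rests on the scale. With 3 tumours a group an exact permutation test cannot go below p = 0.1.

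In the Vegfa bin, the empty vector tumours had 4.61%, 3.96% and 3.18% and the sFlk1 tumours 4.50%, 2.73% and 5.53%. The sFlk1 tumours were both the lowest and the highest of these 6, and the means of 3.91% ± 0.716 and 4.25% ± 1.42 differed by 0.338 points (SE 0.783, exact permutation p = 0.80). In the Adm bin, the values were 3.60%, 4.83% and 3.62% with empty vector and 3.67%, 4.30% and 5.87% with sFlk1. The difference of 0.594 points (SE 0.841, exact permutation p = 0.50) had the sign opposite to most bins.

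The Kdr bin, the locus whose product the plasmid copies in soluble form, had 3.10%, 2.06% and 2.56% with empty vector and 2.80%, 2.16% and 2.40% with sFlk1. These groups overlapped, with means of 2.57% ± 0.517 and 2.45% ± 0.327 (difference -0.119, SE 0.593, exact permutation p = 0.80). How reads from the plasmid would be assigned is not given in the sources used here. The second Flt1 bin had 4.03%, 2.20% and 1.89% with empty vector and 2.17%, 1.82% and 5.88% with sFlk1. Its difference of 0.586 points (SE 0.812) came from sFlk1 tumour 3, the highest of all 13, and was -0.709 without it. In the first Flt1 bin the means were 4.48% ± 0.228 and 4.38% ± 0.997 (difference -0.107, SE 0.768), and in the Flt4 bin 2.93% ± 0.661 and 2.51% ± 0.745 (difference -0.420, SE 0.722).

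The second Nrp1 bin had 3.14%, 2.86% and 3.08% with empty vector and 3.22%, 1.93% and 3.55% with sFlk1. The empty vector tumours lay close together and the sFlk1 tumours on both sides of them, with a difference of -0.129 points (SE 0.711, exact permutation p = 1). The first Nrp1 bin had 2.40% ± 0.347 with empty vector and 1.97% ± 0.553 with sFlk1 (difference -0.423, SE 0.587). The first Tek bin had 3.98%, 0.556% and 4.61% with empty vector and 3.86%, 4.79% and 2.98% with sFlk1. Empty vector tumour 2 held the lowest value of all 10 bins in all 13 tumours, and the difference of 0.831 points (SE 0.821) was -0.415 without it. The second Tek bin had 3.72% ± 0.757 and 3.20% ± 0.756 (difference -0.527, SE 0.688).

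Both models were then joined, as the mean of heterozygous minus wild type and of empty vector minus sFlk1, so that a positive value means more 5hmC in the better oxygenated tumours of each model. The second Nrp1 bin was 1.19 points higher (SE 0.487, unadjusted p = 0.0218, adjusted p = 0.306 in limma, permutation p = 0.0586 with labels exchanged within each model). It was the only 1 of the 10 bins at an unadjusted p under 0.05, against 12.0% of all bins that were higher and 1.06% lower, and 16.7% higher at like level. The 1 bin of the genome past the adjusted threshold (0.0117%) was none of the 10. Of the 10 bins 7 had a positive value, where 72.3% of all bins and 86.4% at like level did. The value in the Adm bin was 0.906 points (SE 0.576, adjusted p = 0.505), and in the Vegfa bin -0.119 (SE 0.536, adjusted p = 0.941). Divided by the tumour mean, none of the 10 was under an unadjusted p of 0.05 in limma. The share of all bins on that scale was not set beside this, so it is not read as a trait of the 10. The weighted Nrp1 value was 1.04 points higher, with an exact permutation p of 0.0329 that was 0.101 after division by the tumour mean.

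The difference between the models was tested as the Phd2 difference minus that of empty vector and sFlk1. It was 3.00 points in the Adm bin (SE 1.15, unadjusted p = 0.0149, adjusted p = 0.927 in limma, exact permutation p = 0.03) and 2.11 points in the second Nrp1 bin (SE 0.974, unadjusted p = 0.0391, adjusted p = 0.927, exact permutation p = 0.103). These 2 of the 10 bins were under 0.05 unadjusted, both higher, against 3.94% of all bins (1.04% lower) and 4.87% at like level. The difference was positive in 7 of the 10, as in 62.9% of all bins and 67.6% at like level. The null of this permutation is that neither model has an effect. The Adm bin was higher in the better oxygenated group of the Phd2 model and in the less oxygenated group of the sFlk1 model, and the second of these differences was within its SE.

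The other genes of the pathway were described by role, 54 genes in 8 lists, each gene by the bin with most of its body. The lists were drawn up with earlier results of these data known, so their counts are descriptions and not independent findings. Of the 54, 45 were higher on average in heterozygous tumours and 9 lower, with a median of 0.737 points, and 11 were higher at an unadjusted p under 0.05 and 0 lower. Over all bins 75.1% were higher on average, with 10.4% higher and 0.443% lower at that p, and at the level of the 7 genes 88.3% and 14.8% were higher. None of the 54 passed the adjusted threshold. After division by the tumour mean 28 were higher, with a median of 0.0327 points, and 2 were higher and 2 lower at an unadjusted p under 0.05. On that scale 46.8% of all bins and 54.1% at like level were higher on average. At that p in limma, 139 of the 8576 bins were higher and 191 lower. The proteins that carry the signal inside the cell, VEGF receptor signalling, were higher in 11 of 11, by a median of 1.57 points, 6 of them at an unadjusted p under 0.05, and in 8 of 11 relative to the tumour mean (median 0.633 points), 1 of them at that p. They include Ptk2, the focal adhesion kinase, with 7.90% ± 1.73 (n = 4) against 4.88% ± 1.01 (n = 3), a difference of 3.03 points (SE 0.909, adjusted p = 0.324 in limma). The 10 ligand and receptor bins of the 7 genes had a median of 0.593 points, but this counts 2 bins for each of 3 genes. The sets also differ in level, as signalling bins reached 7.97% (Pik3r1) and the highest of the 10 bins was Adm at 5.01%. The median difference was 0.385 points over all bins and 0.747 at like level, so the medians of these sets are not directly comparable. Among VEGF family ligands 3 of 4 were higher, with Pgf (placental growth factor, a ligand of Flt1) at 7.06% ± 0.961 against 4.39% ± 1.87 (difference 2.67, SE 0.844, adjusted p = 0.337). In Notch signalling of vessels 5 of 6 were higher, led by the transcription factor Hey2 with 5.07% ± 0.575 against 2.94% ± 0.640 (difference 2.14, SE 0.626, adjusted p = 0.324).

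Of the genes that were lower, those of smallest p were the endothelial guidance receptor Robo4 (-0.686 points), Sema3a (-0.347), a ligand of Nrp1 that repels growing processes, and the Notch ligand Jag1 (-0.708), with unadjusted p-values in limma of 0.299, 0.369 and 0.370. Co-receptors and modulators of VEGF were higher in 4 of 7, with a median of 0.0518 points. The receptors of adrenomedullin, Calcrl, Ramp2 and Ramp3, were higher in 3 of 3 (median 0.369 points), genes of the angiopoietin-Tie axis in 3 of 5 (0.600), angiogenesis inhibitors in 5 of 6 (0.736) and other angiogenic ligands and receptors in 11 of 12 (0.824).

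**Figure D4:**
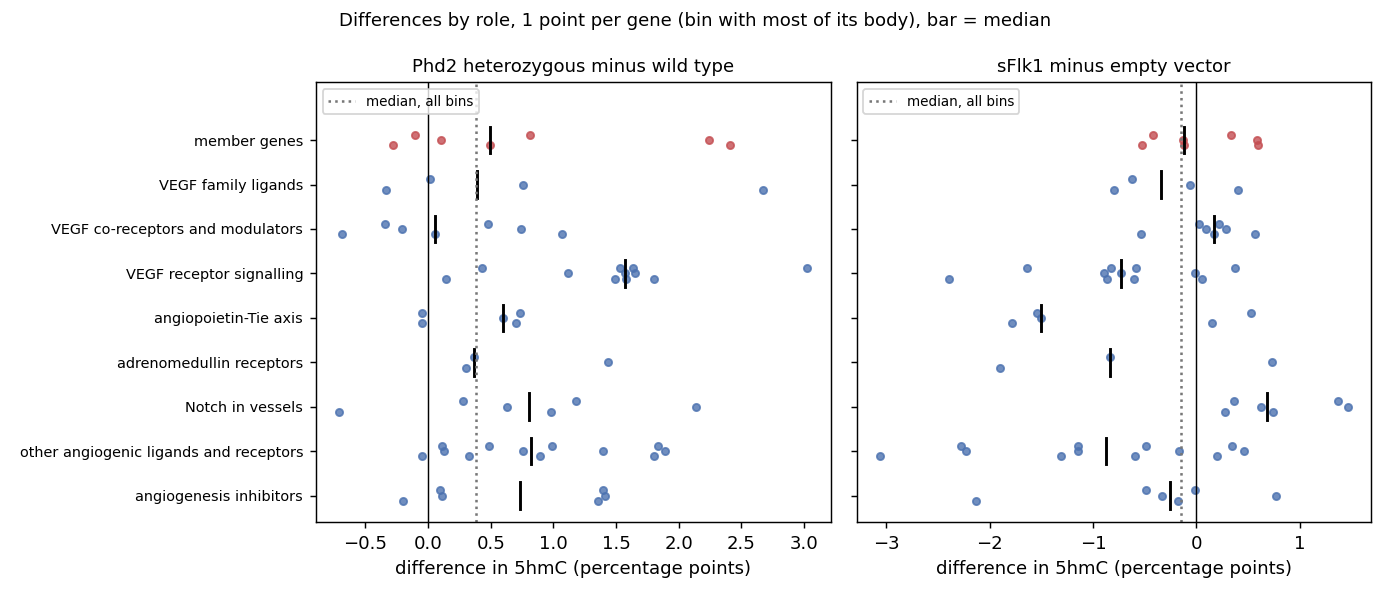
Differences in 5hmC (percentage points, horizontal axis) for the 7 genes (red) and the 54 other pathway genes (blue) by role, 1 point per gene, with a bar at the median of each role and a dotted line at the median of all bins, in the Phd2 model (left) and the sFlk1 model (right). VEGF receptor signalling has the highest median in the Phd2 model (1.57 points), and all 6 Notch genes lie above 0 in the sFlk1 model.

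With sFlk1, the mean of 22 of the 54 genes lay above that with empty vector and that of 32 below it (median -0.254 points), 8 were lower at an unadjusted p under 0.05 and 0 higher, and none passed the adjusted threshold. Over all bins 59.5% had the lower mean with sFlk1, with 5.06% lower and 2.12% higher at that p, and 6.33% were lower at like level. Relative to the tumour mean 27 were higher on average, where 51.9% of all bins and 48.2% at like level were. On that scale 6 were lower and 1 higher at an unadjusted p under 0.05. The share of all bins at that p was not set beside these counts, so they are not read as a trait of the 54 genes. The lowest p-values were those of Fgfr1, a receptor of fibroblast growth factors, with 4.92% ± 0.952 against 7.98% ± 0.680 (difference -3.06, SE 0.917, adjusted p = 0.477 in limma), of the apelin receptor Aplnr with 2.63% ± 0.805 against 4.86% ± 0.907 (difference -2.23, adjusted p = 0.517), and of Ramp2, which makes Calcrl a receptor for adrenomedullin, with 2.35% ± 0.420 against 4.25% ± 1.15 (difference -1.90, adjusted p = 0.582). VEGF receptor signalling was lower in 9 of 11 (median -0.726 points), and in 7 relative to the tumour mean. The 6 Notch genes were all higher (median 0.684 points), with the endothelial receptor Notch4 at 3.56% ± 0.401 against 2.09% ± 0.580 (unadjusted p = 0.0551), and Jag1 and the co-receptor Nrp2 were higher by 1.37 and 0.569 points (unadjusted p = 0.111 and 0.317).

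Bins of cell type markers were mostly higher in the Phd2 model, as were 75.1% of all bins. Endothelial markers were higher in heterozygous tumours in 7 of 8 (median 1.05 points), luminal epithelial markers in 5 of 6 bins (1.09; Krt8 and Krt18 share a bin), basal or myoepithelial ones in 5 of 5 (0.219), fibroblast ones in 5 of 5 (0.449) and leukocyte ones in 6 of 6 (0.604). With sFlk1, endothelial markers were higher in 2 of 8 (median -0.355 points), luminal ones in 1 of 6 bins (-0.599) and basal or myoepithelial ones in 2 of 5 (-0.412). Fibroblast ones were higher in 5 of 5 (0.934) and leukocyte ones in 4 of 6 (0.306), where 59.5% of all bins were lower. None passed the adjusted threshold in either model. 5hmC in a bin does not measure a share of cells, and the part of the cell makeup in the results above was not tested.

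How the 10 bins varied together was described only apart from the level of the whole genome, and the correlations had both signs. Over the 13 tumours, after division by the tumour mean, the highest correlation between any pair was r = 0.666 (Vegfa and the second Flt1 bin), followed by 0.630 (Kdr and the second Tek bin) and 0.563 (Flt4 and Adm), and the lowest was -0.587 (Flt4 and the first Tek bin). The pairs of bins of 1 gene had r = 0.275 (Flt1), 0.180 (Nrp1) and -0.0196 (Tek). The bins of the whole genome most like each gene's main bin, outside 3 Mb, were those of Pde4b for Nrp1 (r = 0.909), of Klf4 for Kdr (0.895), of 8 genes with Abr and Nxn for Flt1 (0.883), of Naaladl2 for Flt4 (0.860) and of Sgcz for Adm (0.806). For Vegfa (0.883) and Tek (0.890) the nearest were bins without a protein-coding gene, on chromosomes 1 and 8. All of these are descriptions over 13 tumours that share the division by their own mean, each picked as the highest of the bins kept.

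The spread between tumours of a group also differed among the 10. The within-group SD was smallest in the Kdr bin, 0.573 points, at percentile 9.32 of the bins of like level, and largest in the second Flt1 bin and the first Tek bin, 1.21 and 1.20 points, at percentiles 88.5 and 88.2. In both of the latter 1 tumour set the spread, sFlk1 tumour 3 and empty vector tumour 2.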

How the data were processed

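5hmC was measured in 13 tumours by TAB-seq; per the labels' protocols, extraction buffers held DFO, an iron chelator (200 µM). The authors deposited 1 table of the percent 5hmC in 300 kb bins, 1 column per tumour. Per the submitters' processing notes, Bismark 0.13.1 and the build mm9 were used, without a stated role, but bin ends match GRCm38 (chromosome 1 ends at 195471971), so RefSeq GRCm38.p6 genes were used. For pooling within bins, coverage and conversion rates, details were not given in the sources used here. A 0 may stand for no reads. Tests used 8576 bins, after removal of chromosomes Y and MT (307 bins) and of bins that were 0 in every tumour (214). limma 3.58.1 (R 4.3.3) was run on percentages with a trend, 4 group means and Benjamini-Hochberg adjustment at 0.05, beside exact two-sided permutation tests for the bins of the 7 genes. The permutation of both models exchanged labels within each model. Simulated data were independent normal values with the mean and spread of each bin, and without the shift of the whole genome seen here. With 2 points added to 200 bins, 42.5% of them were recovered in either model, and with 4 points 95.5% (Phd2) and 93.5% (sFlk1). With 0 points added, 0 bins passed in the Phd2 comparison and 1 in the sFlk1 comparison. All 7 genes are named, with, per model and direction, the 3 pathway genes of smallest p and the most similar bin per gene. The genes, lists and tests were chosen with earlier results of these data known. Groups and replicate numbers came from the sample titles.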

Additional observations from a re-analysis of the deposited data

How the results depend on the processing

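Over 24 alternatives (log2 and arcsine scales, division by the tumour mean or median, filters on low bins, only the groups compared, no trend, array weights, replicate block, a 900 kb window, and leaving out each tumour), no bin of the 7 genes passed the adjusted threshold. Of 940 bin values, 835 kept their sign and 105 changed it, 12 of these where a value exceeded its SE. The count kept includes values that could not change. The filters on low bins and the fit without a trend leave every difference as it was and alter only its SE. For the difference of a single model the same holds for the fit of only the groups compared and for leaving out a tumour of the other model. In the Phd2 comparison the second Nrp1 bin was under an unadjusted p of 0.05 in 24 of 24 (p from 0.000567 to 0.0352, adjusted p from 0.174 to 1) and the Adm bin in 22 of 24 (p from 0.00114 to 0.0858, adjusted p from 0.120 to 1), the exceptions being division by the tumour mean and by the tumour median. These alternatives are not independent, as in several of them the difference itself is the same. Leaving out each tumour in turn, the difference was 1.71 to 2.72 points in the second Nrp1 bin and 1.93 to 2.96 in the Adm bin.

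Signs turned as follows. By division by the tumour mean the Phd2 difference became -0.794 for Vegfa and -0.832 for the first Flt1 bin (-0.731 by the median), and the value over both models -0.409 for Kdr and -0.538 for the first Flt1 bin. With the 900 kb window Kdr was 0.724 in the Phd2 comparison and 1.07 in the difference between models, and the first Tek bin -0.0632 with sFlk1. In that window the Phd2 difference of the second Nrp1 bin kept its sign but fell to 0.792 points. With 1 tumour left out in turn, the first Tek bin ran from -0.415 (without empty vector tumour 2) to 1.61 with sFlk1 and from -0.458 to 0.554 (without the same tumour) over both models. The second Flt1 bin ran from -0.709 (without sFlk1 tumour 3) to 1.32 and from -0.414 to 0.601 (without the same tumour), and the weighted Nrp1 value with sFlk1 from -0.416 to 0.182 (without sFlk1 tumour 2). The cause was not tested for any of these.

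The count of all bins past the adjusted threshold, 0 in the Phd2 comparison, was 1 on the log2 scale, 1 with the replicate block and 0 to 1 with 1 tumour left out. With sFlk1 it was 1, and 1 to 4 with 1 tumour left out. Over both models it was 1 and became 2 on the arcsine and log2 scales, 3 without a trend, 0 over the 7338 bins above 0 in all tumours, and up to 3 with 1 tumour left out. For the difference between models it was 1, 0 over the bins above 0 in all tumours, and up to 2 with 1 tumour left out. In the Phd2 comparison 930 bins were under an unadjusted p of 0.05, 330 after division by the tumour mean and 463 without wild type tumour 2. Of the 54 pathway genes, 28 instead of 45 were higher after division by the tumour mean, an alternative chosen after seeing the data. The weighted Flt1 value in the Phd2 comparison kept its sign with 1 tumour left out, where no p under 0.0667 was reached. Same-numbered tumours did not deviate together (correlations from -0.0934 to -0.00429), while pairs of unlike number ran from -0.0554 to 0.0787. All these values are small and come from groups of 3 or 4 tumours, so they give no sign of a pairing but cannot settle it. With the replicate block the Phd2 difference was 2.52 points in the second Nrp1 bin and 2.44 in the Adm bin (adjusted p = 0.335 and 0.348 in limma). Heterozygous tumour 4 has no wild type tumour of its number, so it does not enter the difference in that fit. Without read counts, how far depth limits a bin is unknown.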
